A study of Mus musculus with 9 samples.

Results

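The genes described here are 9 that build or anchor epithelial cell contacts, out of 19359 genes with deposited values, chosen by symbol: the E-cadherin gene Cdh1, the catenin genes Ctnnb1, Ctnna1 and Ctnnd1, the tight junction genes Tjp1 and Ocln, the keratin genes Krt8 and Krt18, and the ezrin gene Ezr. They were measured in 9 poly(A) RNA-seq libraries of mouse embryos, each made from a pool of 3 embryos collected 34 h after fertilization, falling into 3 groups of 3 libraries lettered A, B and C. LPN embryos underwent pronuclear transfer at a later time and EPN embryos at an early time, and SPN embryos underwent a sham transfer and served as control. In this procedure the pronuclei of one fertilized egg are lifted out and placed in the emptied cytoplasm of another, and the study asked how its timing relative to the first embryonic DNA replication bears on the outcome. Per the labels, eggs came from hormone-stimulated B6D2F1 hybrid females aged 8 to 12 weeks, a background that all 3 groups share. The protocols also describe cytoplasts made by selective enucleation of immature oocytes, without tying them to a group, and the sources used here do not give the clock times of the procedures. No label states that pools of a group were made on different days or from different matings, and the spread behind each p-value may thus be technical.

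In cleavage-stage embryos the blastomeres first lie side by side as round cells and later flatten against each other at compaction. That step needs E-cadherin, a calcium-dependent adhesion protein whose cytoplasmic tail binds beta-catenin and p120-catenin, with alpha-catenin linking the complex to actin. Tight junctions and keratin filaments are completed later still, in the trophectoderm, the outer epithelium of the blastocyst, and ezrin ties the membrane to actin in the microvilli of the outer surface. The embryos here were collected before these events, when RNA inherited from the egg is being replaced by RNA of the embryo's own genome. Whole embryos were pooled and values were scaled to each library's total. A level is thus a share of the library's reads, not an amount per embryo or per cell. Fewer cells holding a gene's RNA and less of it per cell cannot be told apart.

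Library totals ran from 7611781 reads in LPN B to 15559218 reads in LPN A, and 1 read equalled 0.0643 to 0.131 CPM (reads scaled to the total of the library). All 18 markers of oocytes and 2-cell embryos were detected, with a summed level of 13600 to 18100 CPM in LPN, 11800 to 17600 CPM in EPN and 11200 to 12400 CPM in SPN. On the first principal component of all tested genes, which carried 30.5% of the variance, LPN libraries lay at 36.8 to 77.9, SPN B at -50.6 and SPN C at -84.6, while SPN A, at -2.0, was inside the EPN range of -29.4 to 7.3. SPN A stands apart from the other sham libraries, and LPN B, the shallowest library, lies farthest from them, so results are also given without each library in turn. The 12 cumulus and granulosa cell markers analysed summed to 29.7 to 40.8 CPM in LPN, 25.1 to 58.7 CPM in EPN and 35.5 to 46.3 CPM in SPN. Foxl2, the ovarian somatic transcription factor gene, was the only 1 of the 12 at 0 in all 9 libraries. Amhr2 of the same list, singled out after its values were seen, was at 17.9 ± 2.67 CPM in LPN, 17.4 ± 7.79 CPM in EPN and 26.6 ± 8.96 CPM in SPN (SD, n = 3 each). The 8 sperm markers summed to 51.4 to 70 CPM in LPN, 16.2 to 37.3 CPM in EPN and 31.5 to 51.8 CPM in SPN. None of the 7 tested cumulus and 4 tested sperm markers was called by limma, edgeR or DESeq2 in LPN against SPN. Of these, 0 had an unadjusted p under 0.05, beside 26.9% of all tested genes. The members of these lists with the smallest p in any comparison were Tnfaip6, a cumulus matrix gene, and Ldhc, a germ cell enzyme gene. Tnfaip6 was at 16.6 ± 6.36 CPM in EPN and 5.13 ± 4.93 CPM in SPN (SD, n = 3 each; limma adjusted p = 0.27), and Ldhc was at 44.4 ± 16.7 CPM in LPN and 15.1 ± 9.16 CPM in EPN (limma adjusted p = 0.0585), where DESeq2 called it higher in LPN and edgeR did not.

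Of the 9 genes, 3 fell in LPN against SPN and none rose: Cdh1, Tjp1 and Krt8. All 9 reached 1 CPM in 3 or more libraries and were tested with limma on log2(CPM + 1), where a call is an adjusted p under 0.05 over all 14876 tested genes. Over all tested genes 5.54% were called lower and 3.26% higher in LPN against SPN, and 26.9% had an unadjusted p under 0.05. The 3 of 9 called lower stand above the 5.54% of all genes called lower, a comparison given as a description because the genes were listed with earlier results known. The median log2 change of the 9 genes was -1.28, beside -0.17 for all tested genes, and 8 of the 9 had a negative log2 change. For Ezr, 1 of these 8, the mean CPM was nonetheless higher in LPN. With median-of-ratios scaling these medians were -1.12 and -0.03, 7 of the 9 log2 changes were negative and the same 3 genes were called. That scaling also moved the calls over all genes, to 4.46% higher and 3.64% lower. LPN and SPN did not overlap for 3 of the 9 genes, all lower in LPN, beside 16.2% of all tested genes that lay wholly lower in LPN. Within SPN, Cdh1 and Tjp1 were lowest in SPN A, which lay near EPN on the first principal component, and highest in SPN C at its far end, and the part of this spread in the results was not tested.

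Cdh1 encodes E-cadherin. Its level was 9.7, 16.7 and 18.9 CPM in LPN A, B and C, 41.1, 25.7 and 25.2 CPM in EPN A, B and C, and 38.5, 51.7 and 63.0 CPM in SPN A, B and C. The 3 LPN libraries were the lowest of the 9, and EPN A lay inside the SPN range. These levels rest on 127 to 226 reads per LPN library, 329 to 568 per EPN library and 538 to 720 per SPN library. Cdh1 averaged 15.1 ± 4.81 CPM in LPN and 51.1 ± 12.2 CPM in SPN (SD, n = 3 each), a log2 change of -1.71 (SE 0.41, limma adjusted p = 0.0107), or 3.28-fold lower in LPN. The change was -1.9 without SPN A (adjusted p = 0.00369), and the call ended without LPN A (-1.44, adjusted p = 0.0617) and without SPN C (-1.55, adjusted p = 0.0909). With edgeR on recovered reads the change was -1.59 (adjusted p = 0.0365).

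Tjp1 encodes ZO-1, the scaffold protein that links tight junction strands to actin and that also sits at early cadherin contacts. It was at 18.5, 10.9 and 20.1 CPM in LPN A, B and C, 26.9, 30.1 and 20.6 CPM in EPN A, B and C, and 32.0, 50.2 and 73.1 CPM in SPN A, B and C. The groups stood in the order LPN, EPN, SPN from lowest to highest with no overlap between neighbours, although LPN C (20.1 CPM) and EPN C (20.6 CPM) lay side by side. Tjp1 fell in LPN, to 16.5 ± 4.92 CPM against 51.8 ± 20.6 CPM in SPN (SD, n = 3 each), a log2 change of -1.56 (SE 0.42, limma adjusted p = 0.0206). Its call was lost without LPN B (-1.30, adjusted p = 0.118), without SPN B (-1.54, adjusted p = 0.0643) and without SPN C (-1.28, adjusted p = 0.163), and without SPN A the change was -1.86 (adjusted p = 0.00397).

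Krt8 encodes a type II keratin, which pairs with the type I keratin of Krt18 to form the first keratin filaments of the mouse embryo. Krt8 had 12, 0 and 0 reads in LPN A, B and C, 57, 0 and 89 reads in EPN A, B and C, and 114, 54 and 177 reads in SPN A, B and C. These reads equal 0.771, 0 and 0 CPM in LPN, 4.12, 0 and 6.67 CPM in EPN and 8.17, 4.78 and 15.5 CPM in SPN, and a count of 0 allowed up to 0.394 CPM in LPN B, 0.251 CPM in LPN C and 0.234 CPM in EPN B. The sham libraries all held Krt8 reads, and 3 of the 6 transfer libraries held none. Krt8 fell in LPN, to 0.257 ± 0.445 CPM against 9.48 ± 5.47 CPM in SPN (SD, n = 3 each), with a log2 change of -2.98 (SE 0.71, limma adjusted p = 0.0105). The log2 change was -5.38 with a pseudocount of 0.1 CPM in place of 1 CPM, and over all 18 alternatives it lay between that value and -2.59, the value without SPN C. The call ended without a filter on low values (adjusted p = 0.0543), with edgeR (adjusted p = 0.0823), without LPN B (-2.84, adjusted p = 0.0596) and without SPN C (-2.59, adjusted p = 0.0916). Its annotated pseudogene Krt8-ps was not analysed here, and how reads that match both were counted is not given in the sources used here.

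**Figure D1:**
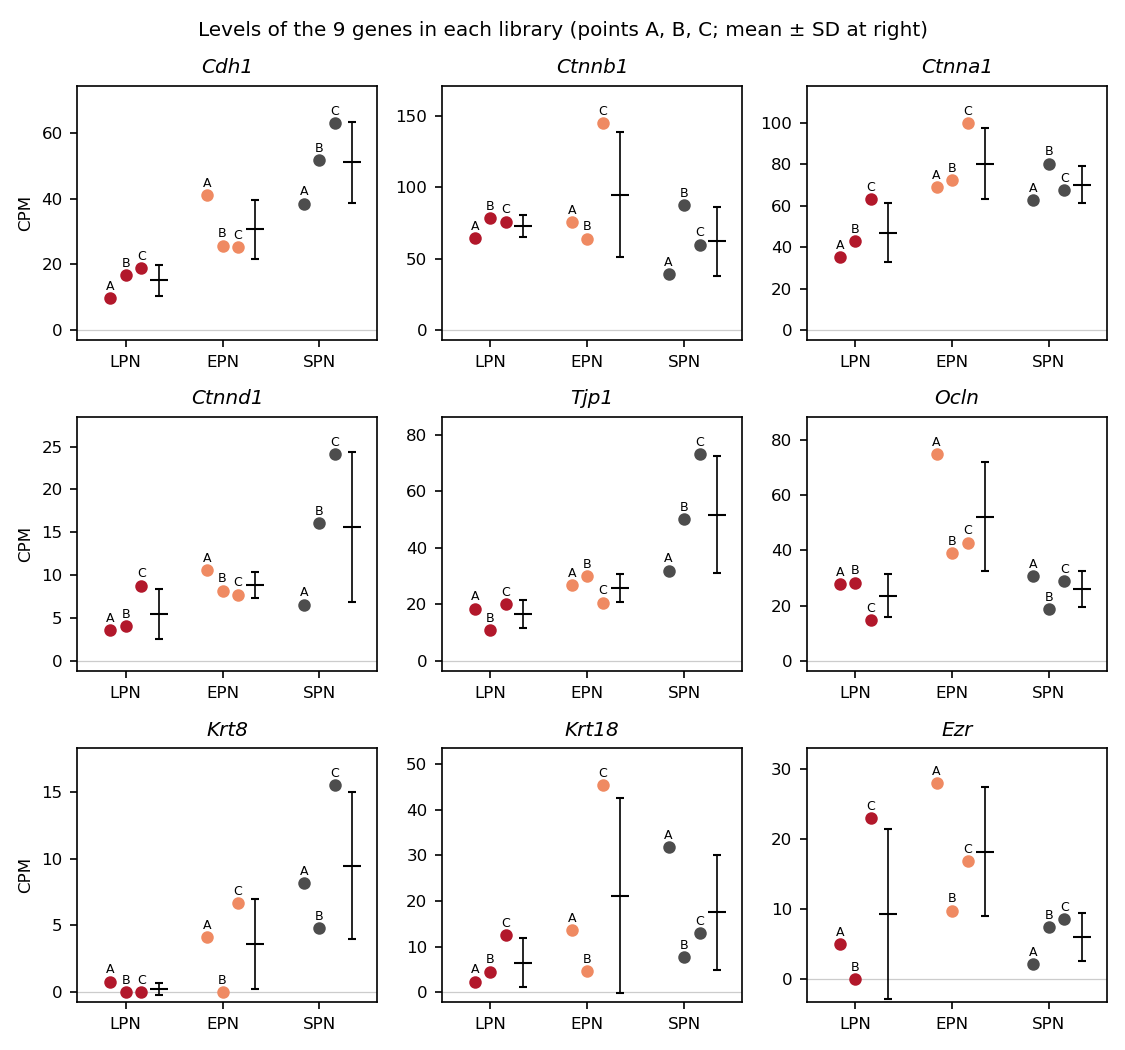
Level of each of the 9 genes in CPM (vertical axes, linear) in the LPN, EPN and SPN groups; each point is 1 library with its letter, and the bar to the right of each group is the mean ± SD of 3 libraries. The LPN points of Cdh1 (9.7 to 18.9 CPM) and Tjp1 (10.9 to 20.1 CPM) lie below all SPN points (from 38.5 and 32.0 CPM), and Krt8 is at 0 in LPN B, LPN C and EPN B.

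Krt18, the partner of Krt8, was at 2.25, 4.47 and 12.5 CPM in LPN A, B and C, 13.6, 4.53 and 45.4 CPM in EPN A, B and C, and 31.8, 7.71 and 12.9 CPM in SPN A, B and C. All 3 groups overlapped, and the spread was widest within EPN. The log2 change of Krt18 in LPN against SPN was -1.35 (SE 0.66, 95% interval -2.69 to 0, limma adjusted p = 0.185). Reads of Krt18 were present in all 9 libraries, 34 or more in each, including the 3 libraries without a Krt8 read. Of the reads of both keratin genes together, Krt8 took 25.5% in LPN A (Wilson 95% interval 15.3% to 39.5%), 0% in LPN B (up to 10.2%) and 0% in LPN C (up to 2.51%). Its share was 23.3% in EPN A (18.4% to 28.9%), 0% in EPN B (up to 6.21%) and 12.8% in EPN C (10.5% to 15.5%). In the sham group it was 20.4% in SPN A (17.3% to 24.0%), 38.3% in SPN B (30.7% to 46.5%) and 54.6% in SPN C (49.2% to 60.0%). LPN A, EPN A and SPN A had overlapping intervals, and SPN B and SPN C lay above every EPN library. Such intervals reflect counting error alone and take each read as independent. PCR copies of a molecule can count as separate reads, which makes the intervals too narrow.

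Of the 9 genes, 7 matched the RefSeq table of promoter windows for GRCm38.p6, an older build than the GRCm39 assembly used by the authors. Cdh1 and Ctnna1 had no entry there and were not searched for motifs. The keratin pair and Tjp1 have 1 promoter window each. The windows are shown because Krt8 and Krt18 lie side by side on mouse chromosome 15, with 0 protein-coding genes between them, while only Krt8 was called, and because Tjp1 was called as well. Each is the 250 bases before the annotated start, 5′ to 3′ on the gene's strand, with the matches to the motifs searched in capitals.
Krt8, chr15:102004343-102004592, minus strand: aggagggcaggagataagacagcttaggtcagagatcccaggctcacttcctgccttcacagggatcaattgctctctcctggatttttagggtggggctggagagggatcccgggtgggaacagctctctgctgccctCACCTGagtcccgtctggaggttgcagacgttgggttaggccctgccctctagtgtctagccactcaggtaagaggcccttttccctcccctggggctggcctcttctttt
Krt18, chr15:102027966-102028215, plus strand: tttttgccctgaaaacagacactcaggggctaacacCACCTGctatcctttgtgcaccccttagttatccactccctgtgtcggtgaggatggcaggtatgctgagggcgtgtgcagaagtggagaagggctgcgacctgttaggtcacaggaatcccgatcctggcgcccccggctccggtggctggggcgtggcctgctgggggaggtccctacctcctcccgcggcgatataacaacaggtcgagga
Tjp1, chr7:65371245-65371494, minus strand: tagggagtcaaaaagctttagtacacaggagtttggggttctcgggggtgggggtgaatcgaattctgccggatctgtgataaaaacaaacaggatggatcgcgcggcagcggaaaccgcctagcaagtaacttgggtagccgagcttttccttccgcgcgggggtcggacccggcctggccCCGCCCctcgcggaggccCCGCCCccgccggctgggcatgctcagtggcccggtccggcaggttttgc

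The 4 motifs were searched on both strands: CACCTG, the E-box form bound by Snail-type repressors; GGGCGG, the GC box; CCAAT; and TGANTCA, the AP-1 site. Krt8 and Krt18 held 1 CACCTG each and none of the other motifs, and Tjp1 held 2 GC boxes, read as CCGCCC on the printed strand, and no CACCTG. Of 32851 windows of the same length in the table, 17.2% held CACCTG or its reverse complement, 32.7% the GC box, 33.8% CCAAT and 6.75% the AP-1 site. Among the other matched genes, Ocln had 2 CACCTG matches in 1 of its windows, and Ctnnb1, Ctnnd1 and Ezr had no CACCTG. GC boxes were also found in Ctnnb1 (3 and 2 in its windows), Ezr (2) and Ocln (1 in each window), but not in Ctnnd1. CCAAT was found in Ctnnb1 (2 in 1 window), Ctnnd1 (2 in each window) and Ocln (1 in 1 window). Ezr had 1 AP-1 match. The matches describe letters only and do not show that a factor was bound.

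None of the 3 catenin genes was called in LPN against SPN by limma, edgeR or DESeq2. Of them 1, Ctnnd1, had an unadjusted p under 0.05, as had 26.9% of all tested genes. Ctnnb1 encodes beta-catenin, which binds the E-cadherin tail and also carries Wnt signals to the nucleus. It was at 64.5, 78.4 and 76.0 CPM in LPN A, B and C, 75.5, 64.0 and 145 CPM in EPN A, B and C, and 39.1, 87.5 and 59.8 CPM in SPN A, B and C. The LPN values all lay within the SPN range, and EPN C was the highest of the 9 libraries. Ctnnb1 averaged 73.0 ± 7.42 CPM in LPN and 62.1 ± 24.3 CPM in SPN (SD, n = 3 each), and the log2 change of 0.30 had a 95% interval of -0.42 to 1.02 (limma adjusted p = 0.619). It was the only one of the 9 genes with a positive change on the log2(CPM + 1) scale in LPN against SPN, where Ocln and Ezr turned positive under some alternatives and the mean CPM of Ezr was higher in LPN.

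Ctnna1 encodes alpha-E-catenin, the actin-binding link of the complex. Its level was 35.2, 43.0 and 63.1 CPM in LPN A, B and C, 69.0, 72.4 and 99.9 CPM in EPN A, B and C, and 62.7, 80.4 and 67.7 CPM in SPN A, B and C. LPN C lay just above the lowest sham library, the other LPN libraries lay below it, and all LPN values lay below all EPN values. The log2 change in LPN against SPN was -0.60 (95% interval -1.28 to 0.08, limma adjusted p = 0.244). Part of its annotated exons overlaps Lrrtm2 on the opposite strand, and the sources used here do not say whether the counting used strand. The same holds for Ctnnb1 with Ulk4, Krt8 with the predicted gene Gm36026 and Ezr with Sytl3, while Ctnnd1 overlaps the predicted gene Gm28635 on its own strand.

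Ctnnd1 encodes p120-catenin, which holds E-cadherin at the membrane by shielding it from endocytosis. It was at 3.6, 4.07 and 8.8 CPM in LPN A, B and C, 10.6, 8.2 and 7.72 CPM in EPN A, B and C, and 6.59, 16.1 and 24.1 CPM in SPN A, B and C. SPN A lay below all 3 EPN libraries and below LPN C. With a log2 change of -1.28 in LPN against SPN (SE 0.57), Ctnnd1 did not pass (limma adjusted p = 0.146). Without SPN A it passed (-1.76, adjusted p = 0.0355), and with array quality weights likewise (-1.64, adjusted p = 0.0324), so that 4 of the 9 genes were called lower under either setting.

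Ratios within a library do not depend on how libraries are scaled. The reads of Ctnnb1 were 6.65, 4.7 and 4.01 times those of Cdh1 in LPN A, B and C, 1.84, 2.49 and 5.77 times in EPN A, B and C, and 1.01, 1.69 and 0.949 times in SPN A, B and C. All LPN and EPN ratios lay above all SPN ratios, with EPN A (1.84) close to SPN B (1.69), and EPN C lay within the LPN range. The reads of Ctnna1 were 2.57 to 3.62 times those of Cdh1 in LPN, 1.68 to 3.97 times in EPN and 1.07 to 1.63 times in SPN, again without overlap between either transfer group and SPN, though EPN A (1.68) lay close to SPN A (1.63). Each ratio is compared only between libraries, because the genes differ in length, and no test was run on these ratios. Cdh1, by which both are divided, was itself called lower in LPN against SPN. The LPN ratios carry that difference and are not a separate result. In EPN against SPN none of the genes in these ratios was called (limma adjusted p = 0.52 for Cdh1, 0.559 for Ctnnb1 and 0.874 for Ctnna1). Of all tested single genes, 14.6% did not overlap between EPN and SPN. How often ratios of other gene pairs separate these groups was not counted, so the EPN ratios are given as a description.

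**Figure D2:**
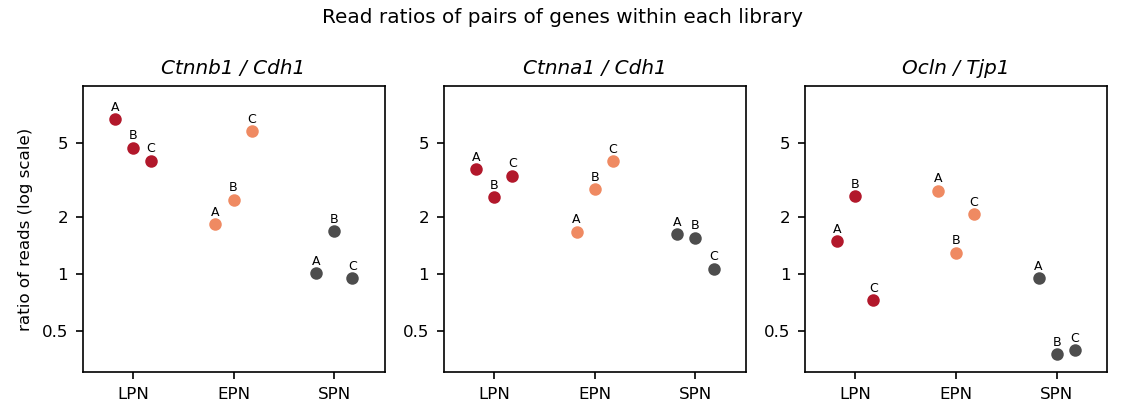
Ratio of the reads of Ctnnb1 to Cdh1, Ctnna1 to Cdh1 and Ocln to Tjp1 within each library (vertical axes, log scale) in the LPN, EPN and SPN groups; each point is 1 library with its letter. Ctnnb1 reads were 4.01 to 6.65 times Cdh1 reads in LPN and 0.949 to 1.69 times in SPN, and the Ocln to Tjp1 ratio of LPN C (0.729) lay inside the SPN range.

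Neither Ocln nor Ezr was called in LPN against SPN by any of the 3 tools, and neither had an unadjusted p under 0.05. Ocln encodes occludin, a membrane-spanning protein of tight junctions that binds ZO-1. It was at 27.8, 28.4 and 14.7 CPM in LPN A, B and C, 74.8, 39.1 and 42.8 CPM in EPN A, B and C, and 30.6, 18.8 and 28.8 CPM in SPN A, B and C. The LPN and SPN ranges overlapped and every EPN library lay above both. Its log2 change was -0.16 in LPN against SPN (95% interval -0.99 to 0.66, limma adjusted p = 0.833), with a sign that turned under median-of-ratios scaling (0.01) and quantile normalization (0.03). The reads of Ocln were 1.5, 2.6 and 0.729 times those of Tjp1 in LPN A, B and C, 2.78, 1.3 and 2.08 times in EPN A, B and C, and 0.955, 0.374 and 0.394 times in SPN A, B and C. This ratio carries the difference of Tjp1, which was itself called lower in LPN against SPN.

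Ezr encodes ezrin, which links membrane proteins to cortical actin and marks the apical pole of blastomeres at compaction. It was at 4.95, 0 and 23.0 CPM in LPN A, B and C, 28.0, 9.77 and 16.9 CPM in EPN A, B and C, and 2.08, 7.44 and 8.57 CPM in SPN A, B and C. LPN B was the lowest of the 9 libraries and LPN C the highest but for EPN A, and a count of 0 in LPN B allowed up to 0.394 CPM. Ezr averaged 9.3 ± 12.1 CPM in LPN and 6.03 ± 3.47 CPM in SPN (SD, n = 3 each), so its means and its mean log2 values differed in opposite directions. Its log2 change of -0.27 in LPN against SPN (SE 0.76, 95% interval -1.81 to 1.28, limma adjusted p = 0.857) turned to 0.92 without LPN B and was 0.75 with edgeR and with DESeq2.

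**Figure D3:**
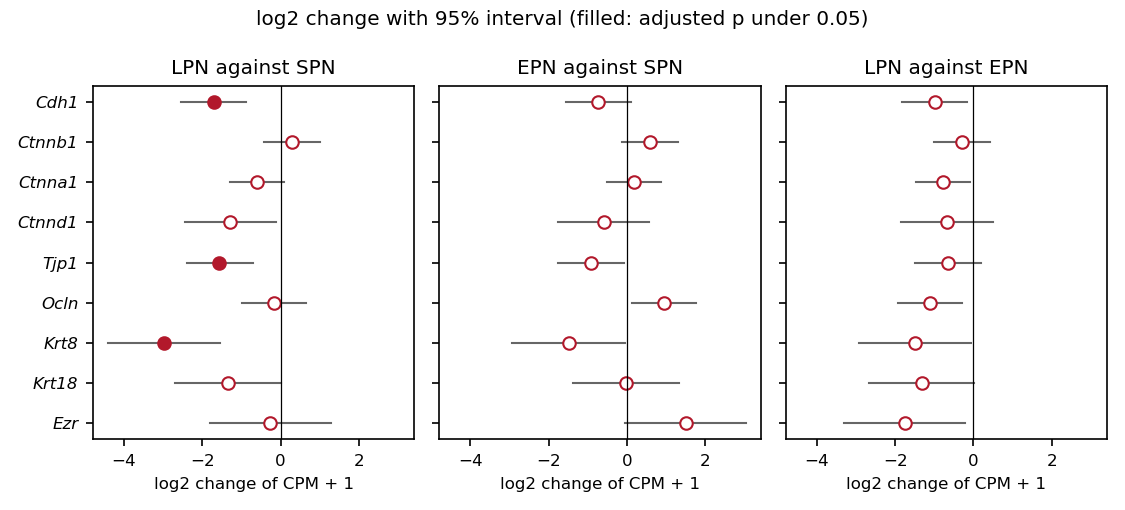
log2 change of CPM + 1 (horizontal axes) of each of the 9 genes in LPN against SPN, EPN against SPN and LPN against EPN; points are limma estimates, lines their 95% intervals, and filled points have an adjusted p under 0.05 over all tested genes. Cdh1 (-1.71), Tjp1 (-1.56) and Krt8 (-2.98) are the filled points, all in LPN against SPN, and Ctnnb1 (0.30) is the only positive point there.

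In EPN against SPN none of the 9 genes was called by limma, with 3 of 9 at an unadjusted p under 0.05 (Tjp1, Ocln and Krt8) and 0 called by edgeR and by DESeq2. Over all tested genes 0.108% were called, 0.0739% higher and 0.0336% lower, and 11% had an unadjusted p under 0.05. The median log2 change was -0.03 for the 9 genes and -0.07 for all genes. Tjp1 averaged 25.9 ± 4.82 CPM in EPN and 51.8 ± 20.6 CPM in SPN (SD, n = 3 each), a log2 change of -0.91 (limma adjusted p = 0.417). Ocln had a change of 0.95, at 52.2 ± 19.7 CPM in EPN and 26.1 ± 6.36 CPM in SPN (limma adjusted p = 0.382), and Krt8 one of -1.49, at 3.6 ± 3.36 CPM in EPN and 9.48 ± 5.47 CPM in SPN (limma adjusted p = 0.432). Groups did not overlap for Tjp1, lower in EPN as in 7.56% of all tested genes, and for Ocln and Ezr, higher in EPN as in 7.07%. Ezr averaged 18.2 ± 9.17 CPM in EPN and 6.03 ± 3.47 CPM in SPN (log2 change 1.5, SE 0.76, limma adjusted p = 0.466), and Cdh1 had a log2 change of -0.73 (95% interval -1.56 to 0.10, limma adjusted p = 0.52). Krt18 averaged 21.2 ± 21.5 CPM in EPN and 17.5 ± 12.7 CPM in SPN, and its log2 change was -0.03, with an interval of -1.37 to 1.32 and a sign that turned under median-of-ratios scaling (0.01) and quantile normalization (0.06).

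In LPN against EPN, the comparison of the 2 timings of transfer, all 9 genes had a negative log2 change and none was called by limma, edgeR or DESeq2. All libraries were collected 34 h after fertilization, so a later transfer also left less time before collection. The timing itself and this shorter time cannot be told apart here. Of the 9, 5 had an unadjusted p under 0.05, beside 19.3% of all tested genes, of which 1.53% were called, 0.692% higher and 0.84% lower. With median-of-ratios scaling the calls over all genes were 0.854% higher and 0.356% lower. The median log2 change was -0.99 for the 9 genes and -0.14 for all genes, and -0.86 and -0.04 with median-of-ratios scaling. Ocln had the smallest p, with 23.6 ± 7.77 CPM in LPN and 52.2 ± 19.7 CPM in EPN (SD, n = 3 each; log2 change -1.11, SE 0.41, limma adjusted p = 0.13). Cdh1 averaged 15.1 ± 4.81 CPM in LPN and 30.6 ± 9.02 CPM in EPN (log2 change -0.99, limma adjusted p = 0.179). Groups did not overlap for Cdh1, Ctnna1, Tjp1 and Ocln, 4 of the 9 genes, all lower in LPN, beside 26.6% of all tested genes without overlap and 15.3% wholly lower. Ezr passed without LPN C (-2.86, adjusted p = 0.0479), and Cdh1 (-1.11, adjusted p = 0.0491) and Ctnna1 (-0.95, adjusted p = 0.038) passed with array quality weights. The comparisons against SPN share the sham libraries, and those that hold LPN share the LPN libraries, so they are not independent of each other.

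**Figure D4:**
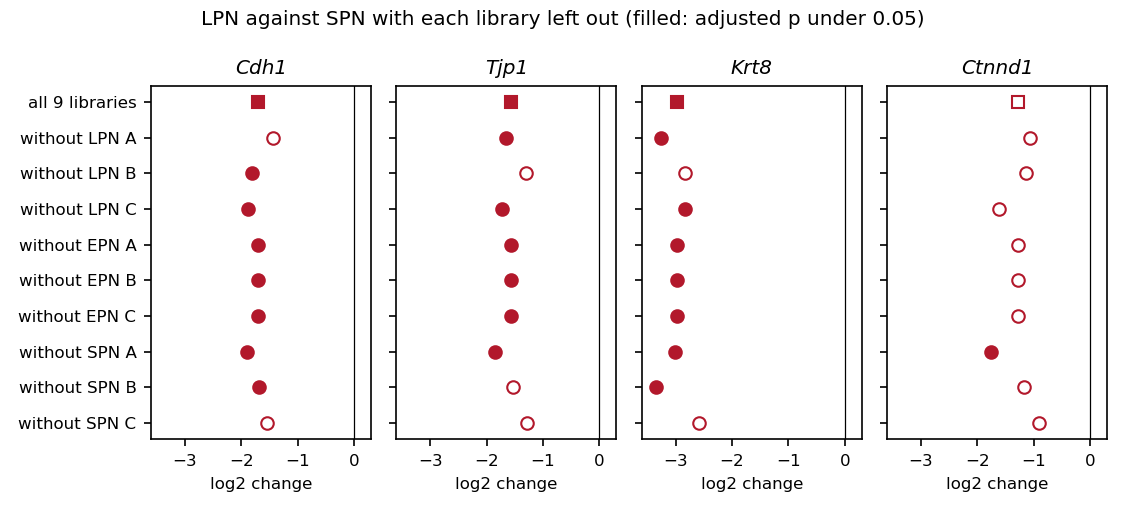
log2 change in LPN against SPN (horizontal axes) of Cdh1, Tjp1, Krt8 and Ctnnd1 with all 9 libraries (squares) and with each library left out in turn (circles); filled symbols have an adjusted p under 0.05. All values stay below 0; without SPN C the 4 symbols are open, at -1.55, -1.28, -2.59 and -0.90, and Ctnnd1 is filled only without SPN A (-1.76).

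The wider cell contact genes were counted in 6 lists: cadherins, catenins and nectins; tight junction and polarity; keratins; desmosome and plakins; ERM proteins (ezrin, radixin, moesin) with apical microvilli; and E-cadherin regulators. Of 115 tested genes outside the 9, 11 fell and 1 rose in LPN against SPN, 9.57% and 0.87% beside 5.54% and 3.26% of all tested genes. Their median log2 change was -0.64, against -0.17 for all genes. With median-of-ratios scaling 7 fell and 1 rose, beside 3.64% and 4.46% of all tested genes. With edgeR 5 fell and with DESeq2 15 fell and 1 rose. With single libraries left out the count of calls ran from 1 without SPN C to 28 without SPN A. Array quality weights gave 29 calls.

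Among tight junction and polarity genes limma called 3 of 35 lower and none higher (median log2 change -0.71), beside 5.54% and 3.26% of all tested genes. DESeq2 called 6 of the 35 lower and 1 higher. The gene called higher by DESeq2 was Pard6a, a polarity gene related to Pard6g and singled out after its values were seen, at 7.74 ± 2.77 CPM in LPN and 1.67 ± 1.22 CPM in SPN (SD, n = 3 each; log2 change 1.75, limma adjusted p = 0.0765). Ybx3, a Y-box factor that also binds ZO-1, fell to 23.3, 17.5 and 36 CPM in LPN A, B and C, against 81.4, 77.7 and 153 CPM in SPN A, B and C (log2 change -1.97, SE 0.37, limma adjusted p = 0.00283). It was the 1 gene of these lists still called without SPN C. The polarity scaffold gene Pard3 fell to 135 ± 13.7 CPM in LPN, against 287 ± 59.8 CPM in SPN (SD, n = 3 each; limma adjusted p = 0.0212). Its partner gene Pard6g had 2.02 ± 1.05 CPM in LPN and 15.1 ± 6.5 CPM in SPN (log2 change -2.40, limma adjusted p = 0.0138).

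Of 18 tested ERM and microvillus genes 4 fell and none rose (median log2 change -0.61), beside 5.54% and 3.26% of all tested genes. Epb41, a membrane skeleton gene, fell to 20.6, 8.93 and 23.8 CPM in LPN A, B and C, against 45.3, 74.1 and 99.2 CPM in SPN A, B and C (log2 change -2.01, limma adjusted p = 0.00402). Radixin, an ezrin relative encoded by Rdx, fell to 95.7, 77.8 and 91.7 CPM in LPN A, B and C, against 157, 200 and 222 CPM in SPN A, B and C (log2 change -1.11, limma adjusted p = 0.0157). The others were Vil1, which encodes the microvillar actin bundler villin (-1.40, limma adjusted p = 0.0233), and Slc9a3r1, the gene of an ezrin-binding scaffold (-1.60, limma adjusted p = 0.0299). Radixin thus fell where ezrin did not pass, and the difference between the 2 genes was not tested.

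In the list of cadherins, catenins and nectins, beside 5.54% lower and 3.26% higher over all tested genes, 2 of 19 fell and none rose (median log2 change -0.93). These were Afdn, the gene of the nectin-binding protein afadin, at 41.6 ± 8.4 CPM in LPN and 94.0 ± 36.5 CPM in SPN (limma adjusted p = 0.0459), and Ajuba, a LIM protein gene, at 17.4 ± 4.91 CPM in LPN and 47.0 ± 12.5 CPM in SPN (SD, n = 3 each; limma adjusted p = 0.0399). Both calls ended with median-of-ratios scaling, under which none of the 19 genes was called. Of 25 E-cadherin regulators 2 fell and 1 rose, beside 5.54% and 3.26% of all tested genes. Those that fell were the protein kinase gene Prkd1 (log2 change -1.48, limma adjusted p = 0.0488) and the spectrin gene Sptbn1 (-1.66, limma adjusted p = 0.029). Cbll1 rose; it encodes Hakai, a ubiquitin ligase for E-cadherin. Its level was 186, 163 and 196 CPM in LPN A, B and C and 177, 69.7 and 33.1 CPM in SPN A, B and C (log2 change 1.27, SE 0.39, limma adjusted p = 0.0377). SPN A lay inside the LPN range, and edgeR and DESeq2 did not call Cbll1.

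None of the 10 tested keratin genes and 8 tested desmosome and plakin genes was called by limma, edgeR or DESeq2 in LPN against SPN. An unadjusted p under 0.05 was found for 2 and 0 of these genes, beside 26.9% of all tested genes. Their medians, -0.07 and -0.12, lay near the -0.17 of all genes. Krt12 had the smallest p of the keratins, at 15.6 ± 10.1 CPM in LPN and 29.2 ± 3.97 CPM in SPN (limma adjusted p = 0.142), and Krt84 followed, at 8.14 ± 5.17 CPM in LPN and 17.6 ± 2.22 CPM in SPN (limma adjusted p = 0.167). The trophectoderm keratin gene Krt7 was at 0 in all 9 libraries, and Krt19, another keratin of simple epithelia singled out after its values were seen, had 0 reads in every LPN and EPN library and 0, 89 and 89 reads in SPN A, B and C. Krt19 was too rarely detected to be tested. Plec, which encodes the filament linker plectin, had a log2 change of 2.38 in EPN against SPN, at 8.58 ± 2.91 CPM in EPN and 0.938 ± 0.83 CPM in SPN (SD, n = 3 each), and did not pass (limma adjusted p = 0.121).

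In EPN against SPN none of the 115 wider genes was called by limma, edgeR or DESeq2. Of the 115, 10 had an unadjusted p under 0.05, beside 11% of all tested genes. The median of the 115, -0.10, lay near the -0.07 of all genes. In LPN against EPN 5 fell and none rose, 4.35% beside 0.84% of all tested genes called lower: Pard3, Ybx3, Rdx, Epb41 and Sptbn1. With median-of-ratios scaling, edgeR or a pseudocount of 0.1 CPM none of these was called, and DESeq2 called all 5.

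**Figure D5:**
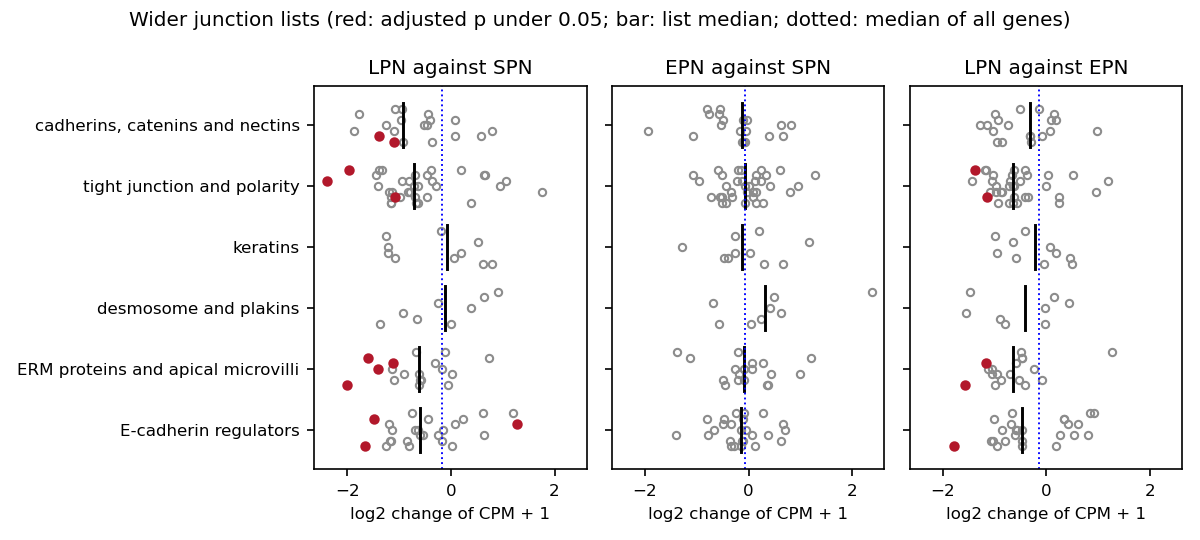
log2 change of CPM + 1 (horizontal axes) of each tested gene in the 6 cell contact lists, for LPN against SPN, EPN against SPN and LPN against EPN; each circle is 1 gene, red where the adjusted p is under 0.05, the black bar is the list median and the dotted line the median of all tested genes. In LPN against SPN the tight junction and polarity list has its median at -0.71 and the keratin list at -0.07, and the 1 red point above 0 is Cbll1 (1.27).

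Markers of other cells were set beside these results. The 4 blood markers analysed summed to 17.9 to 35.9 CPM in LPN, 37.8 to 90.2 CPM in EPN and 48.6 to 107 CPM in SPN, so LPN lay below the other groups as it did for Cdh1. Within that list Hba-a1, an alpha-globin gene, fell to 19.3 ± 9.0 CPM in LPN, against 60.8 ± 34.7 CPM in SPN (SD, n = 3 each; limma adjusted p = 0.0247), and the part of this difference in the results above was not tested. Of 17 tested oocyte and 2-cell markers 4 fell and 3 rose in LPN against SPN, beside 5.54% and 3.26% of all tested genes. The oocyte growth factor genes Gdf9 and Bmp15 fell, with log2 changes of -1.34 (limma adjusted p = 0.0096) and -1.40 (limma adjusted p = 0.00564), as did the egg gene Oosp1 (-1.09, limma adjusted p = 0.0129). DESeq2 called Gdf9, Bmp15 and Oosp1 as well, whereas edgeR called Gdf9 but not Bmp15 or Oosp1. Zp3, an egg coat gene singled out after its values were seen, rose to 196 ± 43.9 CPM in LPN, against 86.6 ± 17.8 CPM in SPN (SD, n = 3 each; log2 change 1.16, limma adjusted p = 0.0166), so genes of the egg were called in both directions. Tcstv3, a gene switched on in 2-cell embryos, rose to 942 ± 250 CPM in LPN, against 348 ± 57.8 CPM in SPN (SD, n = 3 each; log2 change 1.42, limma adjusted p = 0.00518). These stage markers differed between the same groups as Cdh1, Tjp1 and Krt8, and their part in the results was not tested. The 18 trophectoderm and blastocyst markers analysed summed to 164 to 217 CPM in LPN, 180 to 323 CPM in EPN and 199 to 376 CPM in SPN. Of 15 tested, none was called by limma, edgeR or DESeq2 in LPN against SPN. An unadjusted p under 0.05 was found for 2 of them, beside 26.9% of all tested genes. A negative difference was found for 14, and the median log2 change was -0.59, beside -0.17 for all tested genes. The share of all tested genes with a negative difference was not counted. Some of these markers lay near 0 in LPN, such as Pdgfra at 0 CPM and Tfap2a at 0.427 ± 0.581 CPM (SD, n = 3). The smallest p was that of Sox2, a pluripotency factor gene, at 1.81 ± 2.39 CPM in LPN and 6.32 ± 2.95 CPM in SPN (limma adjusted p = 0.115), followed by that of Gata2, a trophectoderm factor gene, at 0.107 ± 0.186 CPM in LPN and 2.18 ± 2.44 CPM in SPN (limma adjusted p = 0.184).

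The genes whose levels most resembled those of Cdh1 over the 9 libraries, among 9200 genes averaging 5 CPM or more, were Arhgap1 (Pearson r = 0.99), Tmem160 (0.98), Dusp5 (0.98), Fat1 (0.97) and Pdpk1 (0.97). Fat1, which encodes a giant cadherin relative, averaged 9.8 CPM in LPN, 18 CPM in EPN and 35.7 CPM in SPN. For Krt8 they were Pcbd1, Ap3s1, Mapk3 and Surf4 (0.97 each) and Pex13 (0.96), among 9201 genes. The 9 points share their libraries and the group differences described above, and the correlations are given as a description.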

How the data were processed

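The submitters' processing notes name the GRCm39 assembly, HISAT2 (2.2.1), Trim Galore (0.6.7), edgeR and R (3.3.3). Which program counted reads, with what annotation and strand setting, is not given in the sources used here. Per the labels' protocols, cDNA came from the Smart-seq2 v4 kit and Nextera XT libraries were read as 150-bp paired ends. The authors deposited CPM, with 1 column per library. All deposited values (100%) were whole multiples of 1 step within 0.01 reads, which returned whole reads and library totals; the table held all but 3.66% to 5.68% of each library's reads. A count of 0 allowed up to 3 reads.

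Testing took the 14876 genes that reached 1 CPM in 3 or more libraries, on log2(CPM + 1) with 1 limma model of all 9 libraries (limma 3.58.1, R 4.3.3, moderated variances with an intensity trend, residual df 6, prior df 25.9), two-sided, with Benjamini-Hochberg adjustment within each comparison. Fold changes on this scale are drawn towards 1 for low genes. Recovered reads were tested with edgeR 4.0.16 and DESeq2 1.42.0. The pipeline was tested on simulated data. The 9 genes and all lists were chosen with earlier results of these data known. From each wider list the text names up to 4 called members by smallest p, or up to 2 where none was called. Krt7, Krt19, Foxl2, Amhr2, Pard6a and Zp3 are named besides. For Cdh1 and Krt8 the 5 genes with the highest correlation are named. Scaling, filters, pseudocount, weights, tools and left-out libraries were varied.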

Additional observations from a re-analysis of the deposited data

Results flagged for a closer look

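Among the wider cell contact genes, 5 differed between the 2 timings of transfer by the direct test of LPN against EPN, and 0 of these calls held with edgeR. Pard3 was lower in LPN by a log2 change of -1.15 (limma adjusted p = 0.0389), with 126, 127 and 150 CPM in LPN A, B and C and 360, 213 and 344 CPM in EPN A, B and C. Rdx had a change of -1.17 (limma adjusted p = 0.0378), at 88.4 ± 9.42 CPM in LPN and 200 ± 14.3 CPM in EPN (SD, n = 3 each). Epb41 had one of -1.56 (limma adjusted p = 0.0423), at 17.8 ± 7.83 CPM in LPN and 51.6 ± 14.2 CPM in EPN. Sptbn1 showed the largest of the 5, -1.79 (limma adjusted p = 0.0475), at 7.83 ± 1.37 CPM in LPN and 30.2 ± 8.7 CPM in EPN, and Ybx3 had one of -1.37 (limma adjusted p = 0.0499), at 25.6 ± 9.48 CPM in LPN and 66.6 ± 17.2 CPM in EPN. In all 5 genes each LPN library lay below each EPN library, which their selection by a call on these same libraries made likely. Of the 115 wider genes, 34 lay wholly lower in LPN, beside 15.3% of all tested genes.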

How the results depend on the processing

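Of 510 single-gene values recomputed under the alternatives, 477 kept their direction and their side of the threshold, 9 lost a call, 5 gained one and 19 changed sign, all 19 in values that were not called. Signs turned for Ocln in LPN against SPN (0.01 with median-of-ratios scaling, 0.03 with quantile normalization, 0.08 with array quality weights, 0.02 with edgeR, 0.06 with DESeq2, and -0.37 to 0.14 with single libraries left out), for Ezr in LPN against SPN (0.75 with edgeR and with DESeq2, -1.37 to 0.92 with libraries left out), for Krt18 in EPN against SPN (0.01, 0.06, 0.51, 0.25 and 0.25 in the same order of settings, -0.82 to 0.72) and for Ctnnb1 in LPN against EPN (-0.52 to 0.06 with libraries left out). The cause was not tested. The number of the 9 genes called in LPN against SPN ran from 0 without SPN C and 1 without LPN B to 4 without SPN A; in LPN against EPN it was 0 to 1 with libraries left out and 2 with array quality weights. The wider genes called in LPN against SPN numbered 12, and 4 without a filter on low values, 29 with array quality weights, 5 with edgeR, 7 in a fit of the 6 libraries and 1 to 28 with libraries left out. In EPN against SPN they numbered 0 to 1, and in LPN against EPN 5, with 0 for a pseudocount of 0.1 CPM, no filter, median-of-ratios scaling or edgeR, 3 with quantile normalization, 15 with array quality weights and 0 to 11 with libraries left out.

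Over all genes, 1309 were called in LPN against SPN, with 494 without a filter, 2731 with array quality weights, 477 with edgeR, 659 in a fit of the 6 libraries and 96 to 2733 with libraries left out. In EPN against SPN 16 were called, with 4 at a pseudocount of 0.1 CPM, 3 with median-of-ratios scaling, 313 with array quality weights, 116 with DESeq2, 25 with the replicate block, 0 without a filter, with edgeR or in a fit of the 6 libraries, and 0 to 451 with libraries left out. In LPN against EPN 228 were called, with 62 at a pseudocount of 0.1 CPM, 0 without a filter, 395 at a mean of at least 5 CPM, 1321 with array quality weights, 17 with edgeR, 926 with DESeq2, 480 with the replicate block, 464 in a fit of the 6 libraries and 4 to 762 with libraries left out. The replicate block, with the library letter as block, changed no call among the 9 genes. Over all genes it gave 1644 calls in LPN against SPN, beside 1309 without it, and more calls in the other comparisons too. The correlations of same-lettered deviations were -0.02 to 0.09, and whether the letters pair the libraries was not settled. Where a library was left out, its group's remaining libraries were assumed to vary like the others. The counts over the wider genes were added after seeing the data. At the depth of LPN B, levels under 0.394 CPM cannot be told from 0. Krt8 was not tested at a mean of at least 5 CPM, which it does not reach.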
